A study of Mus musculus with 12 samples.

Results

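Pyramidal neurons of hippocampal field CA1 and of the adjoining prosubiculum were examined as a class of nuclei in P21 cortex of WT and MYT1L Het mice. A nucleus was a member when the unique molecular identifiers (UMIs) of Fibcd1, Gm2115 and Gm10754 summed to at least 3 with at least 2 of these genes detected, Slc17a7 was at 1 or more, Gad1 and Gad2 were at 0 and Prox1 was at most 1. This selected 278 of 71914 nuclei with at most 12000 UMIs and at most 1% mitochondrial UMIs, out of 78743 in all, and they are called CA1-type nuclei here. They were compared with the 23018 other excitatory nuclei (Slc17a7 of at least 1, no Gad1 or Gad2). A further comparison was with 85 dentate-type nuclei. These are excitatory nuclei with at least 3 UMIs of Prox1, a factor of dentate granule neurons, and with Fibcd1, Gm2115 and Gm10754 summing to under 3. The dentate-type nuclei are part of the 23018. The UMIs of the rule genes chose the members, so every level that sets CA1-type nuclei against other nuclei is a description with no test.

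The study used single-nucleus RNA sequencing (snRNAseq) to follow the effects of losing MYT1L, a zinc finger transcription factor of neurons, in developing mouse cortex. The 12 animals were C57BL/6 mice of the Myt1l em1Jdd line at P21 (21 days), and the WT and Het groups each held 3 males and 3 females. Het animals carried 1 copy of the S710fsX frameshift allele, and WT animals none. Animals of both genotypes had received AAV9 with hyPB and with H2b-tdT-SRT, the calling card reagents, into the ventricles as newborns, so no group was free of virus. Nuclei came from dissected frozen cortex, as the labels and the study's methods have it, and the methods name prefrontal cortex in 1 place. Neither names the hippocampus, and how much hippocampus was taken along was not given in the sources used here. Each animal is 1 sample, and p-values measure the spread between animals, pooled over both classes in tests that compare classes.

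CA1 pyramidal neurons are glutamatergic neurons that receive the Schaffer collaterals of CA3 and direct input from entorhinal cortex. They carry the output of the hippocampus to the subiculum and beyond, and are known for place cell firing and long-term potentiation. The zinc finger factor Zbtb20 is required for their identity, and the prosubiculum lies between CA1 and the subiculum.

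Fibcd1 encodes a membrane receptor that binds acetylated sugars (chromosome 2, 31813290 to 31846005 of mm10, minus strand). Gm2115 lies on chromosome 7, 84528954 to 84583531 (plus strand), and Gm10754 is annotated as a long intergenic noncoding RNA on chromosome 10, 97681414 to 97967090 (minus strand). The 250 bases before the RefSeq start of each gene are printed 5′ to 3′ on the strand of the gene because these 3 genes define the class (build GRCm38.p6, chr2:31846006-31846255 minus, chr7:84528724-84528973 plus and chr10:97967091-97967340 minus). Capitals mark AAGTTT, the core of the motif bound by the MYT1 family, or its reverse complement AAACTT. A match on either strand was found in 12.8% of all 32851 such windows.
Fibcd1: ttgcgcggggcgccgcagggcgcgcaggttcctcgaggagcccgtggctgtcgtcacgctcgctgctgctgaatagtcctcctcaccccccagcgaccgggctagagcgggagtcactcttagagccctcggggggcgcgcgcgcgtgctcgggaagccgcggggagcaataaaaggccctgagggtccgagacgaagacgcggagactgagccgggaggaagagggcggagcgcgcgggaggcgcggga
Gm2115: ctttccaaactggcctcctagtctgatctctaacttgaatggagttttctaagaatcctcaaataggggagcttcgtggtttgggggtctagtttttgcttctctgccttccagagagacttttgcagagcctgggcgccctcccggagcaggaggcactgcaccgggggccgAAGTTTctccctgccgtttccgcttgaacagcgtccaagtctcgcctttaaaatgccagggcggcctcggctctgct
Gm10754: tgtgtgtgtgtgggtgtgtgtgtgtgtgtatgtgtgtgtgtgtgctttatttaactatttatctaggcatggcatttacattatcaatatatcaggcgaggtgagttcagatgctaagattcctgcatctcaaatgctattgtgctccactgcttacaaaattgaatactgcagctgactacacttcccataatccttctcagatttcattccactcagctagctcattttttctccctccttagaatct
The window of Gm2115 held 1 match and the windows of Fibcd1 and Gm10754 none. A match is a description of letters, not a binding site.

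The 3 markers were detected unequally in the members that they chose. Gm10754 was detected in 270 of 278 nuclei, Gm2115 in 229 and Fibcd1 in 98. All 3 were detected in 41 nuclei, and the most frequent combination was Gm2115 with Gm10754 alone, in 180 nuclei. In CPM, UMIs of a gene scaled to a fixed total of 1000000 for each class and animal, Gm2115 was at 218 ± 67.6 (SD, n = 12 animals) in CA1-type nuclei, with 95.2, 228 and 330.0 in the lowest, median and highest animal. Other excitatory nuclei were at 4.07 ± 1.01 CPM and dentate-type nuclei, whose definition limits the marker sum, at 0. Gm10754 was at 466 ± 91.6 CPM in members and 34.1 ± 6.47 in other excitatory nuclei, and Fibcd1 at 53.3 ± 17.9 and 1.25 ± 0.378. Free RNA can give UMIs in nuclei that do not express a gene, so inhibitory nuclei (9275 with at least 2 UMIs of Gad1 and Gad2 and no Slc17a7) were read beside them. Gm10754 was detected in 14.5% of them, Gm2115 in 1.95% and Fibcd1 in 0.927%, at a median of 4908 UMIs against 7592 in members. Over pooled UMIs Gm10754 was at 116 CPM in inhibitory nuclei against 33.8 in other excitatory nuclei, so inhibitory nuclei are no background for Gm10754. Gm2115 and Fibcd1 were at 4.48 and 1.70 CPM there.

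Nuclei on both sides of the marker threshold are described by Zbtb20 and by Mef2c, a transcription factor. Over pooled UMIs Mef2c was at 711 CPM in other excitatory, 578 in inhibitory and 330 in dentate-type nuclei. It is therefore not particular to excitatory neurons of isocortex. The 86 members with a marker sum of 3 to under 4 were at 1580.0 CPM of Zbtb20 and 130.3 of Mef2c over their pooled UMIs. The 92 nuclei just outside, with a sum of 2 to under 3, were at 1251 and 468 CPM. The Mef2c level was thus higher just outside, with Zbtb20 still above the 299 CPM of other excitatory nuclei. A further 565 nuclei reached a sum of at least 3 from 1 marker, in 541 of them Gm10754, and stayed outside, at 879 CPM of Zbtb20 and 495 of Mef2c. Of 588 nuclei that met the marker condition, 298 lacked Slc17a7. Those that met every condition but Slc17a7 (263 nuclei) were at 1489 CPM of Zbtb20, beside 1501 in members over pooled UMIs. The limit of 12000 UMIs kept out 94 nuclei that met every other condition.

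Members per animal ran from 9 to 40 in WT (121 in all) and from 11 to 44 in Het (157 in all), and their summed UMIs per animal from 82705 to 326790. WT female 1, with 9 nuclei, fell short of the 10 nuclei needed for a test of expression, so those tests used 11 animals. Median UMIs were 6117 in other excitatory and 5121 in dentate-type nuclei. No barcode was shared between animals, and 2.52% of members had a Scrublet doublet score among the highest 5.00% of kept nuclei. The viral transcript TDTOMATO was at 167 ± 61.5 CPM in members and 281 ± 65.2 in other excitatory nuclei, lower in members in 12 of 12 animals.

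Genes outside the rule were used to check the name of the class. Zbtb20 (chromosome 16, 42875881 to 43642602) was at 1504 ± 466 CPM in CA1-type nuclei, with 939.7, 1394 and 2504 in the lowest, median and highest animal. It was at 297 ± 38.0 CPM in other excitatory nuclei and 4847 in dentate-type nuclei. Members were above other excitatory nuclei in 12 of 12 animals. Mpped1, a CA1 marker, was at 221 ± 62.4 CPM in members and 106 ± 11.5 in other excitatory nuclei, and Man1a, a mannosidase of N-glycan processing, at 239 ± 90.6 and 73.5 ± 17.7, both higher in members in 12 of 12 animals. Wfs1, an endoplasmic reticulum protein that marks dorsal CA1, was at 13.8 ± 11.9 CPM against 5.20, higher in 9 of 12. Spink8, a protease inhibitor, was at 10.8 ± 10.3 against 1.20 and Pou3f1, a POU-domain factor, at 18.8 ± 14.98 against 3.73. These last 3 were sparse, detected in 9.71%, 7.91% and 7.55% of members. The 13 CA1 identity genes, of which these 6 are part, summed to 2931 CPM in members and 1284 in other excitatory nuclei. Zbtb20 alone gave 1504 and 297 CPM of these sums. Some were higher in fewer animals. Meis2, a homeobox factor, was at 300.2 ± 94.1 against 241 CPM, higher in 7 of 12 animals, Nr3c1, the glucocorticoid receptor, at 142 ± 48.9 against 153, higher in 3 of 12, and Lefty1 at 0.991 against 0.0580, higher in 1 of 12.

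The markers of other hippocampal fields and of isocortex were then read in the same nuclei. C1ql2 and Dsp, which mark dentate granule neurons, were at 0 in 278 of 278 members, which allows a share of nuclei with a UMI of up to 1.08%, and at 14.4 and 29.6 CPM in dentate-type nuclei. The other 5 of the 7 dentate genes were not at 0, and the list summed to 80.5 CPM in members and 225 in other excitatory nuclei. The 7 CA2 genes summed to 21.5 CPM, with Rgs14 at 1.63 and Amigo2 at 0.914. Grik4, a kainate receptor subunit of CA3 neurons, was at 259.6 ± 78.0 CPM in members, 206 in other excitatory and 468 in dentate-type nuclei, and the 6 CA3 genes summed to 324 CPM in members and 279 in other excitatory nuclei. Of the subiculum genes, Nts was at 0 and Fn1, fibronectin, at 16.6 ± 21.02 CPM with 4.59 in the median animal. The 5 subiculum genes summed to 38.6 CPM in members and 19.6 in other excitatory nuclei. The 10 isocortex genes summed to 292 CPM in members and 1351 in other excitatory nuclei. Rorb, a layer 4 factor, was at 10.2 against 139.8 CPM and Foxp2, a deep layer factor, at 12.2 against 175, lower in 12 of 12 animals each.

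Lists of glia and of neurons outside the cortical excitatory class were summed in the same way. The 6 astrocyte genes summed to 20.1 CPM in members and 27.6 in other excitatory nuclei, and the 6 oligodendrocyte genes to 91.1 and 123. Oligodendrocyte precursor genes were at 5.59 and 3.49 CPM, and microglial and vascular genes at 16.9 and 17.3. The 10 interneuron genes summed to 115 against 209 CPM, and the 7 genes of striatal projection neurons to 2114 against 1974 CPM. The striatal list includes Pde10a, detected in 98.6% of members at a mean of 10.8 UMIs per nucleus. The oligodendrocyte list includes St18, a gene of the MYT1 family, detected in 30 members. These sums are therefore not a measure of RNA from other cell types alone.

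**Figure D1:**
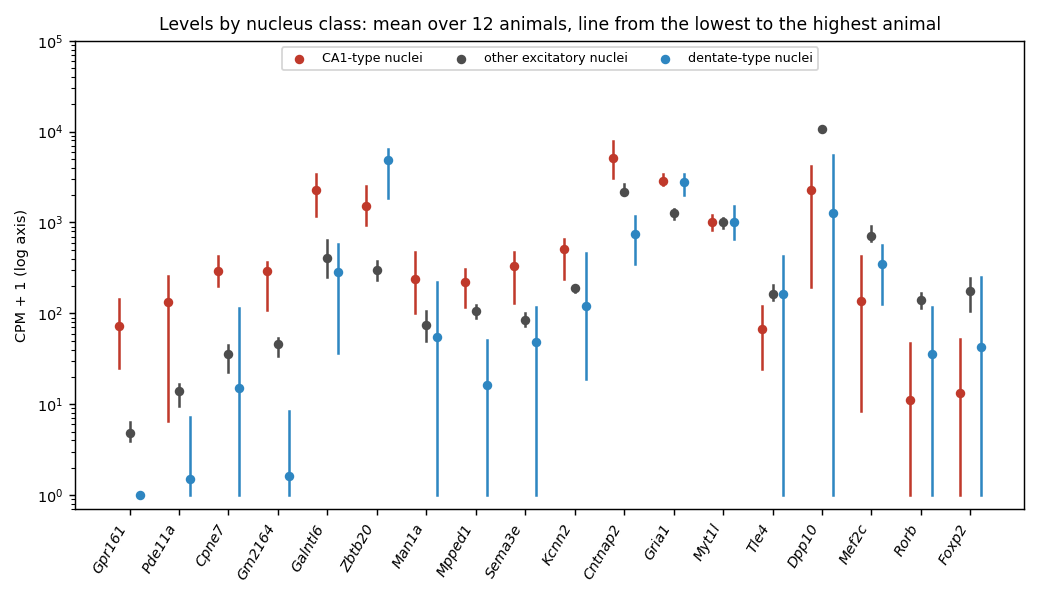
Levels of 18 genes in CPM plus 1 (log axis), with the mean over 12 animals as a point and a line from the lowest to the highest animal, for CA1-type nuclei (red), other excitatory nuclei (grey) and dentate-type nuclei (blue). Zbtb20 in members lies between other excitatory and dentate-type nuclei in its mean (1504, 297 and 4847 CPM), and Mef2c is lower in members (137 against 705).

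The 15 genes with the largest ratio of members to other excitatory nuclei, among genes of at least 50 CPM and outside the rule, were led by Gpr161 (chromosome 1, 165295789 to 165326745), a ciliary receptor that restrains Hedgehog signalling. Gpr161 was at 71.3 ± 29.5 CPM in members and 3.86 ± 0.639 in other excitatory nuclei, a ratio of 18.4, and at 0 in dentate-type nuclei. With 2 to 15 dentate-type nuclei per animal, that 0 does not set them apart from 3.86 CPM. Slc9a2, a sodium proton exchanger, had a ratio of 12.9 and Pde11a, a phosphodiesterase of cAMP and cGMP, 10.2. Pde11a ran from 5.59 to 259.7 CPM over animals, and was higher than in other excitatory nuclei in 11 of 12. Cpne7 (chromosome 8, 123117374 to 123135182), a calcium-dependent membrane-binding copine, was at 293 ± 77.4 CPM against 34.8, and its lowest animal, 197 CPM, lay above the highest of other excitatory nuclei, 43.6. Galntl6, of a glycosyltransferase family, was at 2255 ± 663 against 407 CPM, and Pkp2, a plakophilin of cell junctions, at 147 ± 31.5 against 26.4. Over pooled UMIs Galntl6 was higher in inhibitory nuclei (4587 CPM) than in members (2176). Within members Galntl6 was at 6109.7 CPM in cluster 1, which is described with the clustering, and averaged 1277 over the other clusters. The ratios of Ror1, Kit, Adam12, Itgbl1, Arhgap12 and Parm1 ran from 5.36 to 6.28, and the less characterised Gm2164, 2900092N22Rik and 2310002F09Rik had 6.495, 8.46 and 5.43.

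Receptor genes differed in level between the classes. Gria1, which encodes AMPA receptor subunit GluA1, was at 2889 ± 279 CPM in members and 1257 ± 103 in other excitatory nuclei, and its lowest member animal (2577 CPM) was above the highest of other excitatory nuclei (1416). Grin2a, NMDA receptor subunit GluN2A, was at 3513 ± 408 against 2159 CPM, and Grm5, the metabotropic receptor mGluR5, at 3509 ± 395 against 2271. These 3 were higher in members in 12 of 12 animals. Grm3 and Grm8, presynaptic metabotropic receptors, were lower in 12 of 12, at 72.5 ± 45.0 against 282 and 242 ± 161 against 709.5 CPM. Within members, Grm8 was at 1155 CPM in cluster 6, which is described with the clustering, and averaged 144 over the other clusters. Of the GABA-A receptor subunits, Gabra2 (1041 ± 164 against 456) and Gabra5 (136 ± 47.5 against 48.4), a subunit of extrasynaptic receptors in hippocampus, were higher in 12 of 12 animals, and Gabra4 was lower in 12 of 12 (120.1 ± 26.2 against 208).

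Kcnn2, an SK potassium channel, was at 504 ± 105 against 189 CPM, and Kcnd2, the Kv4.2 subunit of A-type current, at 3844 ± 436 against 2339. Both channel genes were higher in members in 12 of 12 animals. Dpp10, an auxiliary subunit of Kv4 channels, was lower in 12 of 12, at 2265 ± 1184 CPM against 10709 ± 469, and ran from 193 to 4181 CPM over animals. Of its UMIs in members, 56.6% came from the 32 nuclei of cluster 5 and 29.7% from the 30 of cluster 6, which are described with the clustering. Among guidance genes, the Eph receptor Epha6 (3066 ± 617 against 703 CPM) and the ligands Sema3e (330.0 ± 91.8 against 83.0) and Slit2 (522 ± 169 against 155) were higher and Sema3a was lower (17.4 ± 20.8 against 95.8). Among adhesion genes, Cntnap2 (5154 ± 1104 against 2189) and Tenm2 (7213 ± 1183 against 3371) were higher and Ptprd lower (4613 ± 888 against 11441). Each of these 7 held in 12 of 12 animals.

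The members were not uniform. Leiden clustering of the 278 nuclei (1500 variable genes, 10 components, resolution of 0.6) gave 7 clusters of 65, 48, 46, 34, 32, 30 and 23 nuclei, and no animal gave more than 23.5% of any cluster. The clustering used these genes, so levels by cluster are a description.

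Cluster 1 (65 nuclei, median 5830 UMIs) held Galntl6 at 6109.7 CPM and Tenm3, a teneurin, at 3040.0, and the highest Wfs1 (52.4) and Spink8 (25.0) of the 7. Cluster 2 (48 nuclei) held Pde11a at 375 CPM, Etv1 at 359, Cpne7 at 617 and Calb1, calbindin, a marker of superficial CA1 neurons, at 93.2. Cluster 3 (46 nuclei) was led by Gm15810. Cluster 4 (34 nuclei) held Gm32647 at 706 and Trpm3, a cation channel, at 859, with the highest Zbtb20 of the 7 (2848 CPM). Cluster 7 (23 nuclei) was led by Tgfb2 and Chst9, with Man1a at 698 CPM.

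The genes of cluster 5 went against the name of the class, and those of cluster 6 were mixed. Cluster 5 (32 nuclei, median 10220 UMIs) was led by Mef2c (789 CPM), with Cux2, an upper layer factor, at 99.3, Dpp10 at 9217 and Zbtb20 at 368 CPM. In other excitatory nuclei these 4 were at 711, 105, 10766 and 299 CPM over pooled UMIs. Cluster 6 (30 nuclei) was led by Fn1 (133 CPM), Sox2ot (277) and Tshz2 (347), with Dpp10 at 5693, Zbtb20 at 66.3 and Fibcd1 at 7.80. Fn1 is in the subiculum list, so it does not go against a prosubicular name. Tshz2 is in the isocortex list, and the levels of Zbtb20 and Fibcd1 go against CA1. In all, 41 of 278 members held no Zbtb20, 70 held at least 10 UMIs of Dpp10, and 26 both. WT and Het nuclei numbered 11 and 21 in cluster 5, which is 9.09% of WT and 13.4% of Het members. In cluster 6 they numbered 14 and 16 (11.6% and 10.2%). Het female 1 gave 7 of the nuclei of cluster 5. Cluster shares were not tested between genotypes.

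**Figure D2:**
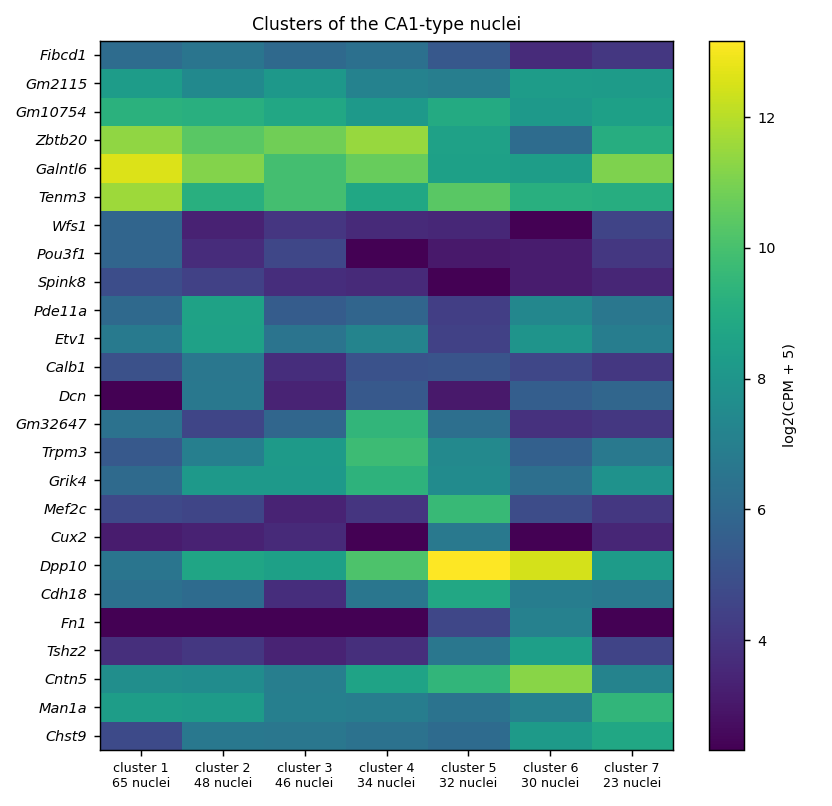
Levels of 25 genes as log2(CPM + 5) (colour) in the 7 clusters of CA1-type nuclei, from UMIs summed over the nuclei of a cluster. Mef2c is at 789 CPM in cluster 5, and Zbtb20 at 66.3 in cluster 6 and 2848 in cluster 4.

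To ask whether the class was kept in number in Het animals, its share of excitatory nuclei was compared. It was 1.13% ± 0.278 (SD, n = 6) in WT, with 0.756% and 1.46% in the lowest and highest animal. In Het it was 1.16% ± 0.391 (SD, n = 6), with 0.605% and 1.66%. The groups overlapped, and the difference, Het minus WT, was 0.0290 percentage points (two-sided exact permutation test over 924 regroupings, p = 0.885). The share of WT female 1 rests on 9 nuclei, with an exact 95% binomial interval of 0.346% to 1.43% that covers counting error only. A nucleus needs several UMIs to enter the class, so every nucleus was also thinned to 3000 UMIs, which left out 6731 shallower WT nuclei and 9090 shallower Het nuclei. Then 53 nuclei met the rule, and the share was 0.456% ± 0.306 in WT and 0.358% ± 0.135 in Het (n = 6 each, difference −0.0978 points, exact permutation p = 0.481). The mean share was 1.21% in WT males, 1.05% in WT females, 1.07% in Het males and 1.25% in Het females, of 3 animals each.

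CA1-type and dentate-type nuclei were set side by side across animals, each per 100 excitatory nuclei that belong to neither class. Over the 12 animals Pearson's r was 0.61 (permutation p = 0.0367, adjusted 0.0550 over 3 relations) and Spearman's rho 0.57 (permutation p = 0.0537, adjusted 0.0805). Neither passed the adjustment. Without Het female 1 and Het female 3, the animals farthest from the median in dentate-type nuclei, r was 0.34. Without either of them alone it was 0.50 or 0.54, so r over the 12 animals rests in part on them. With the study's limits on nuclei r was 0.61 (n = 12, permutation p = 0.0339) and rho 0.48 (permutation p = 0.120), and r was 0.53 without the same 2 animals. Without WT female 3 r was 0.79 (n = 11, permutation p = 0.00545), and 0.62 when the same 2 Het females were also left out. Without the nuclei of highest Scrublet score r was 0.68 (n = 12, permutation p = 0.0155), rho 0.70 (permutation p = 0.0132), and r was 0.61 without Het female 1 and Het male 3. Within WT animals r was 0.10 (n = 6, exact permutation p = 0.851, adjusted 0.851) and rho 0.09 (exact permutation p = 0.919). Within Het animals r was 0.89 (n = 6, exact permutation p = 0.0139, adjusted 0.0417) and rho 0.89 (exact permutation p = 0.0333, adjusted 0.0805). After thinning to 3000 UMIs r over 12 animals was −0.10 (permutation p = 0.751), from 0 to 11 CA1-type and 0 to 7 dentate-type nuclei per animal. In dissected tissue, more nuclei of a type and more tissue of its region cannot be told apart.

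**Figure D3:**
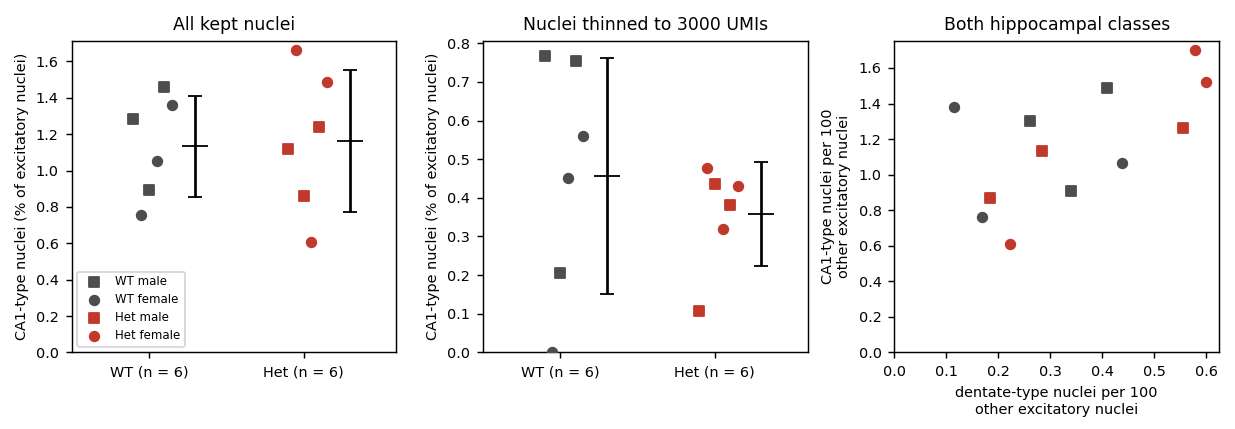
Share of CA1-type nuclei among excitatory nuclei in each animal (percent), with mean ± SD, from all kept nuclei (left) and after thinning to 3000 UMIs (middle). On the right, CA1-type are set against dentate-type nuclei, per 100 excitatory nuclei of neither class (other excitatory nuclei on the axes). Squares are males, circles females, grey WT and red Het. WT runs from 0.756% to 1.46% and Het from 0.605% to 1.66% on the left, so the groups overlap, and WT female 1 is at 0 after thinning.

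Whether Het animals express genes differently in CA1-type nuclei was tested on counts summed per animal, with edgeR's quasi-likelihood test. Of 2713 genes tested, 0 passed an adjusted p under 0.05 with an absolute log2 fold change over 0.2 (0%), and 119 (4.39%) had an unadjusted p under 0.05. DESeq2 also called 0 (0%), with 82 (3.02%) at an unadjusted p under 0.05. The smallest edgeR adjusted p was 0.543. The median standard error of a log2 fold change was 0.23 here and 0.06 for the same genes in other excitatory nuclei. WT and Het animals did not overlap for 4 genes (0.147%).

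Myt1l (chromosome 12, 29528384 to 29923213), the targeted gene, was at 1027, 1037, 938, 1024, 925 and 830.4 CPM in the WT animals and at 1149, 950.4, 1071, 1053, 1203 and 1022 CPM in the Het animals, in the order males 1 to 3 and females 1 to 3. The groups overlapped, with a log2 fold change of 0.15 (standard error 0.12, edgeR unadjusted p = 0.225) that was 0.09 with a marker sum of at least 4. The counts do not tell the frameshift transcript from the intact one, so these values do not check the genotype labels. Over all animals Myt1l was at 1019 ± 100.4 CPM in members, 1008 in other excitatory nuclei and 1020.4 in dentate-type nuclei, and 99.3% of members held it.

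The genes with the smallest p are given as values that did not pass. Cdh18 (chromosome 15, 22549022 to 23474418), a type II cadherin, had 30.7, 66.2 and 190.3 CPM in the lowest, median and highest WT animal and 68.0, 170.3 and 295 in Het (log2 fold change 1.44, standard error 0.32, edgeR adjusted p = 0.543). The groups overlapped, and the highest WT animal was WT female 1, which was not in the fit. Of all UMIs of Cdh18 in members, 51.2% came from cluster 5. With no upper UMI limit the log2 fold change of Cdh18 was 0.49 and with no condition on Slc17a7 0.54. Here and below, both settings also let in WT female 1 (12 animals), so the change of rule and the added animal cannot be told apart. Without Het male 3 Cdh18 passed (1.61, edgeR adjusted p = 0.00891). Brinp2, of a family named for induction by BMP and retinoic acid, had 138, 167 and 213 CPM in WT and 231, 257 and 314 in Het, with no overlap (log2 fold change 0.54, standard error 0.16, edgeR adjusted p = 0.9995). Ddx6, an RNA helicase of P-bodies, had 47.6, 58.5 and 72.5 CPM in WT and 85.7, 93.6 and 133 in Het, also with no overlap (log2 fold change 0.66, standard error 0.23), and its log2 fold change was 0.20 with no condition on Slc17a7. The next by p on this side were Gm41414, Pfkp, Slc9a9, Irf2, Usp48, Nav2 and Ptpn12, with log2 fold changes of 0.37 to 0.94. With no upper UMI limit these 7 were at 0.16 to 0.93, and with no condition on Slc17a7 at 0.16 to 0.56. Irf2 moved from 0.78 to 1.19 without WT male 3.

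On the other side, Ppfia2, the active zone scaffold liprin-α2, averaged 1499.8 ± 294 CPM in WT animals and 1201 ± 137 in Het animals (log2 fold change −0.44, standard error 0.12, edgeR adjusted p = 0.836). Lonrf2, a RING finger gene, was at 88.3 ± 34.6 and 47.2 ± 8.12 CPM (log2 fold change −1.01, standard error 0.27). Shisa6, an auxiliary subunit of AMPA receptors, was at 896 ± 240.0 and 659.7 ± 51.1 CPM (log2 fold change −0.52, standard error 0.15), or −0.34 without WT female 2. WT and Het animals overlapped for all 3. With no upper UMI limit their log2 fold changes were −0.26, −0.62 and −0.16, and with no condition on Slc17a7 −0.26, −0.40 and −0.18. Magi2, Dnah9, Dusp11, Gnai1, Rasgrp1, Hectd2 and Syt16 followed, at −0.66 to −0.35. With no upper UMI limit these 7 were at −0.52 to −0.25, and with no condition on Slc17a7 at −0.48 to −0.21.

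In the gene lists, 0 genes were called in either direction. Of 13 CA1 identity genes 8 were tested, 2 of them at an unadjusted p under 0.05 (against 4.39% of all genes tested), with a median log2 fold change of 0.01 against −0.01 over all genes tested. Zbtb20 had 997, 1833 and 2504 CPM in the lowest, median and highest WT animal and 939.7, 1314 and 1593 in Het (log2 fold change −0.52, standard error 0.19, edgeR adjusted p = 0.9995). Its log2 fold change was −0.14 with a marker sum of at least 4, −0.09 with no condition on Slc17a7 and −0.10 with no upper UMI limit. Etv1, an ETS factor, averaged 191 ± 42.4 CPM in WT animals and 136 ± 50.7 in Het animals (log2 fold change −0.58, standard error 0.22). These are values that did not pass. Of 9 subfield genes 4 were tested (median −0.05).

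Among synaptic and channel lists, medians of the log2 fold change were −0.04 for 9 of 11 AMPA, kainate and delta receptor genes, 0.02 for 3 of 7 NMDA receptor genes, −0.04 for 5 of 7 metabotropic receptor genes and 0.00 for 13 of 15 GABA receptor genes with gephyrin. The median was −0.02 for 14 of 22 sodium and calcium channel genes, 2 of them at an unadjusted p under 0.05. For 21 of 34 potassium and HCN channel genes it was −0.03, with 1 at an unadjusted p under 0.05 (against 4.39% of all genes tested). The 20 postsynaptic plasticity genes tested had a median of 0.02, and the 3 with an unadjusted p under 0.05 (against 4.39% of all genes tested) were Shank2, a scaffold (0.39, standard error 0.15), Homer1, a scaffold of mGluR5 (0.38, standard error 0.17), and Adcy1, an adenylyl cyclase (0.75, standard error 0.33). The log2 fold change of Homer1 was 0.15 with no upper UMI limit and 0.63 with a marker sum of at least 4, and that of Adcy1 0.38 with no condition on Slc17a7 and 0.48 with no upper UMI limit. Axon guidance (19 of 28 tested), synaptic adhesion (34 of 41) and BMP and TGF-beta genes (12 of 36) had medians of −0.06, −0.05 and −0.06. Bmpr1b, a BMP receptor, had 38.4, 83.8 and 134 CPM in the lowest, median and highest WT animal and 0, 20.4 and 85.7 in Het (log2 fold change −1.37, standard error 0.54, edgeR adjusted p = 0.9995). The replicate block called it, at −2.47 on 10 animals (edgeR adjusted p = 0.0137), and the labels do not say that replicate numbers pair the samples. Bmpr1b was at −0.59 with no condition on Slc17a7.

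The genes that the study names for P21 were chosen on these animals and are not independent evidence of a direction. Of 24, 17 were tested, with a median of −0.03, and Epha5 (−0.33, standard error 0.14) and Epha6 (−0.31, standard error 0.14) were the 2 with an unadjusted p under 0.05, against 4.39% of all genes tested. With no condition on Slc17a7 Epha5 was at −0.17 and Epha6 at −0.20, Epha5 was at −0.13 with no upper UMI limit, and Epha6 at −0.17 with a marker sum of at least 4. Genes listed as higher in KO than WT at E14 had a median of 0.01 (282 of 600 tested, 21 at an unadjusted p under 0.05), and genes listed as lower in KO −0.01 (185 of 283 tested, 10 at an unadjusted p under 0.05), against 4.39% of all genes tested. Of 17 immature neuron genes 3 were tested, and Gap43, a growth cone protein, averaged 65.2 ± 25.4 CPM in WT animals and 109 ± 30.4 in Het animals (0.64, standard error 0.28). Its log2 fold change was 0.13 with no condition on Slc17a7, 0.19 with no upper UMI limit and 0.39 with a marker sum of at least 4. Of 14 activity-dependent genes Homer1 alone was tested, and of the MYT1 family and its partners 3 of 10 (median 0.15). CA3, isocortex and striatal lists had 1, 3 and 2 genes tested, with medians of −0.17, −0.27 and 0.19, and the remaining cell type lists had 0.

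**Figure D4:**
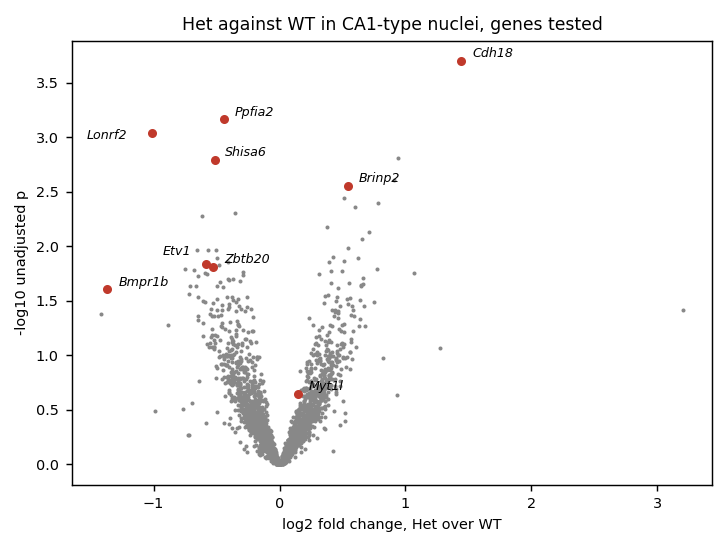
Log2 fold change (Het over WT) against −log10 of the unadjusted p for the 2713 genes tested in CA1-type nuclei, with named genes labelled. Cdh18 has the smallest p and an adjusted p of 0.543, so 0 genes passed.

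In other excitatory nuclei of the same 11 animals 42 of 16829 genes were called (0.25%, with 8.87% at an unadjusted p under 0.05), 39 higher and 3 lower in Het. Of these, 22 were tested in CA1-type nuclei, 3 of them at an unadjusted p under 0.05 (against 4.39% of all genes tested there), with a median log2 fold change of 0.19 against 0.36 in other excitatory nuclei. Both classes come from the same animals, and the genes were chosen by their calls in other excitatory nuclei, so this count is a description. The test of the difference between the classes called 0 of the 42.

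That test, a class by genotype term on sums per animal and class with the animal as a block, called 6 of 13192 genes (0.0455%, with 568, or 4.31%, at an unadjusted p under 0.05), each with a more positive Het effect in CA1-type than in other excitatory nuclei. They were Olfm3, an olfactomedin glycoprotein (difference of log2 fold changes 1.95, standard error 0.33, edgeR adjusted p = 3.27e-05), Cdh18 (1.37, standard error 0.23, edgeR adjusted p = 3.47e-05) and Tmem163, a zinc transporter of synaptic vesicles (2.14, standard error 0.38, edgeR adjusted p = 0.000111). The others were Kitl, the ligand of the receptor Kit (2.57, standard error 0.47, edgeR adjusted p = 0.000197), Grik1, kainate receptor subunit GluK1 (2.45, standard error 0.47, edgeR adjusted p = 0.000730), and Abi3bp, a matrix protein (3.08, standard error 0.71, edgeR adjusted p = 0.0372). In CA1-type nuclei alone all but Cdh18 were below the filter on low counts. The fit used the same dispersion of a gene for both classes, with a common coefficient of variation between sums of 0.121. That coefficient was 0.172 in the fit of CA1-type nuclei alone and 0.0967 in that of other excitatory nuclei alone. The p-values of this term can therefore understate the spread between animals in CA1-type nuclei.

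The levels behind these calls were low. Tmem163 was at 46.3, 7.68, 10.3, 143, 29.0 and 8.39 CPM in the WT animals and at 67.3, 51.8, 48.9, 64.3, 72.6 and 114 in the Het animals, in the same order. The 5 WT animals in the fit were below the 6 Het animals, while WT female 1, outside the fit, was the highest of the 12. Olfm3 was at 27.8, 7.68, 34.4, 119, 14.5 and 27.97 CPM in WT and at 55.0, 88.8, 96.8, 76.5, 12.1 and 116 in Het, and WT female 1 was again the highest of the 12. Kitl was at 0, 23.0, 17.2, 23.8, 3.63 and 5.59 CPM in WT and 81.0, 44.4, 16.3, 45.9, 193 and 17.4 in Het, with overlap. Grik1 was at 13.9, 7.68, 13.8, 0, 3.63 and 12.6 CPM in WT and 0, 22.2, 76.1, 18.4, 36.3 and 82.3 in Het, where Het male 1 was at 0. Abi3bp was at 9.26, 0, 5.16, 0, 0 and 0 CPM in WT and 48.9, 7.40, 5.44, 27.5, 145 and 7.68 in Het. It was 0 in 4 of 6 WT animals and highest in Het female 2, which had 11 members.

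Few nuclei carried several of these genes. Of all UMIs in members, 1 nucleus gave 38.2% for Grik1, 33.5% for Abi3bp and 15.3% for Tmem163. Cluster 5 gave 83.7% of the UMIs of Abi3bp, 51.2% of Cdh18, 49.3% of Kitl and 36.6% of Olfm3, and cluster 6 gave 65.6% of Grik1. Without the nuclei of cluster 5, Het female 2 fell under 10 nuclei and was no longer in the fit, which left 10 animals. Then 3 genes were called (Tmem163, Olfm3 and Grik1), with a difference of −0.014 for Cdh18 and −0.15 for Abi3bp. Without Het female 2 alone Cdh18 was at 1.20 and Abi3bp at 2.52. With WT female 1 let in (at least 5 nuclei, 12 animals) 7 genes were called, and Tmem163 came to 1.39 (edgeR adjusted p = 0.0695). With no upper UMI limit, which also let in WT female 1 (12 animals), 1 gene was called. It was none of these 6, whose differences were 0.41 to 2.77. With no condition on Slc17a7, which also let in WT female 1, the differences of the 6 were 0.48 to 2.11. Without Het male 2 there were 10 calls. Abi3bp was not called without WT male 2, WT male 3, WT female 2, WT female 3, Het male 1 or Het female 2 (edgeR adjusted p from 0.135 to 0.676), nor Grik1 without Het female 3 (adjusted p = 0.438). With each animal left out the difference was 2.52 to 3.79 for Abi3bp and 1.86 to 2.83 for Grik1.

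**Figure D5:**
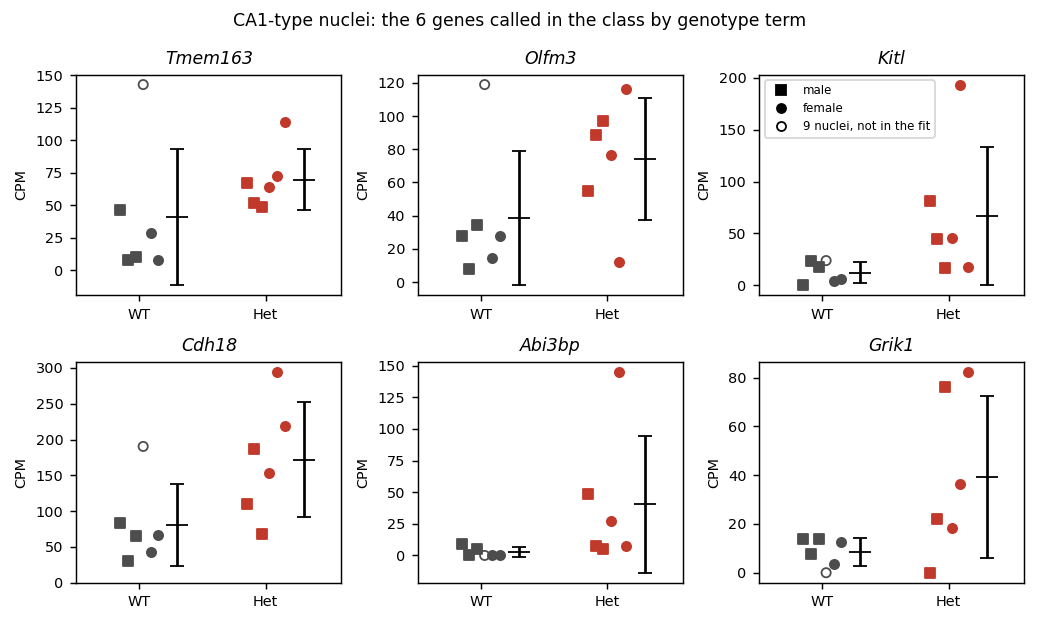
CPM in CA1-type nuclei of each animal for the 6 genes called in the class by genotype term, with squares for males, circles for females, an open circle for WT female 1 (9 nuclei, not in the fit) and mean ± SD over the 6 animals of a group. WT female 1 is at 143 CPM of Tmem163 and 119 of Olfm3, the highest of 12 animals for both, and Het female 2 is at 145 of Abi3bp.

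Against dentate-type nuclei the same term could be fitted on 4 animals, of which WT male 3 was the single WT animal, and called 1 of 3563 genes (0.0281%, with 4.24% at an unadjusted p under 0.05). A single WT animal gives no spread between WT animals, and the fit had 2 residual degrees of freedom, so the call describes these 4 animals. The gene was St18, of the MYT1 family (difference of log2 fold changes −3.37, standard error 0.63, edgeR adjusted p = 0.000376). St18 was at 0, 55.9, 129.7, 29.7, 21.8 and 27.97 CPM in CA1-type nuclei of WT animals and 18.3, 55.5, 10.9, 39.8, 0 and 19.8 in Het, so WT male 3 was the highest of the 12. With 10 animals of at least 3 nuclei in each class the difference was −1.38 (edgeR adjusted p = 0.999) and 0 genes were called. Without Het male 3, 11 genes were called, and without Het female 3, 2.

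A sex by genotype term on CA1-type nuclei called 0 of 3421 genes with edgeR (0%), with 115 (3.36%) at an unadjusted p under 0.05. Without WT female 3, 3 genes were called.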

How the data were processed

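Nuclei of 12 P21 cortices (6 WT, 6 Het) were analysed. Per the methods, the authors ran the ScaleRna workflow on the mm10 genome, with CellFinder to call nuclei, and deposited expected counts per gene and nucleus, without normalization (92.6% of entries were whole numbers). The labels name Seurat 4.3.0 and DESeq2 1.38.3 as the submitters' tools. The lowest UMI total of a barcode was 1502, and total UMIs per animal ran from 23429386 to 59958572. TDTOMATO was left out of library sizes and tests, and Fibcd1, Gm2115, Gm10754, Slc17a7, Gad1, Gad2 and Prox1 were not tested because the rule used them.

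Counts were summed per animal, rounded and tested with edgeR 4.0.16 (TMM, filterByExpr, robust quasi-likelihood fit, genotype as the only term) in animals with at least 10 nuclei. DESeq2 1.42.0 was an alternative. P-values are two-sided and adjusted by Benjamini-Hochberg over all genes tested. The class term compared sums of both classes with the animal as a block. Permutation p of correlations over 12 animals used 100000 resamples, and those within a genotype were exact. CPM are relative to the summed mouse UMIs of a class in an animal. Scrublet scores and clusters came from scanpy 1.11.5 with leidenalg 0.10.2. Doublets stayed in, and removing the 5% of nuclei with the highest scores was an alternative, where the study used DoubletFinder. The study's limits (800 to 6000 UMIs, 300 to 3000 genes, log genes over log UMIs of at least 0.9) were another and left 52 members. The edgeR tests were checked on simulated counts with the same dispersion for every gene and class. That check does not cover unequal spread between the classes or UMIs that come from few nuclei. Promoters came from RefSeq (GRCm38.p6), where all 3 marker genes matched.

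The members, lists and tests were chosen with earlier results of these data known. Genes named are those of the rule, Myt1l, called genes, the 10 with the smallest p in each direction, the CA1 identity and subfield lists, members of the other lists with high levels or small p, and the 15 with the largest ratio to other excitatory nuclei. Genes of lowest ratio, the cluster genes and the choice of receptor and channel genes were named after their values were seen. Results on some genes are not reported here.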

Additional observations from a re-analysis of the deposited data

Results flagged for a closer look

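The class by genotype term of edgeR, the Het effect in CA1-type nuclei minus that in other excitatory nuclei, called 6 genes, with Tmem163 at 2.14 on the log2 scale, Olfm3 at 1.95, Kitl at 2.57, Cdh18 at 1.37, Abi3bp at 3.08 and Grik1 at 2.45. All but Cdh18 were below the filter on low counts in CA1-type nuclei alone, and entered this test through the larger class. Without the cluster led by Mef2c, which also took Het female 2 out of the fit, Cdh18 was at −0.014 and Abi3bp at −0.15. Without Het female 2 alone they were at 1.20 and 2.52. With no upper UMI limit, which also let in WT female 1, none of the 6 was called. With WT female 1 let in and no other change, Tmem163 was at 1.39 (edgeR adjusted p = 0.0695). The same term against dentate-type nuclei gave −3.37 for St18 on 4 animals. It rests on WT male 3 as the single WT animal, with no spread between WT animals, and was −1.38 (edgeR adjusted p = 0.999) with 10 animals, where 0 genes were called.

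In 64 groups of 6 animals examined, 1 animal stood far from the others in 12. The limit used flags about 1 in 20 groups of normally distributed values. Most groups were genes picked from these data by a small p or a call, so the count cannot be set against that rate. The gap of the outlying animal to its neighbour, divided by the range of the group, is given for each. WT female 1, with 9 nuclei, was the highest WT animal for TDTOMATO (0.629, at 226 CPM), Cdh18 (0.670, at 190.3 CPM), Nav2 (0.680, at 761 CPM), Tmem163 (0.714, at 143 CPM) and Olfm3 (0.760, at 119 CPM). WT female 2 was highest for Shisa6 (0.650, at 1356 CPM) and WT female 3 for Dnah9 (0.811, at 292 CPM). Among Het animals, Het female 2, with 11 nuclei, was highest for Irf2 (0.675, at 157 CPM), Kitl (0.635, at 193 CPM) and Abi3bp (0.689, at 145 CPM), Het male 3 for Dnah9 (0.635, at 193 CPM) and Het female 3 for Tmem163 (0.638, at 114 CPM). The part of the number of nuclei in these values was not tested.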

How the results depend on the processing

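In CA1-type nuclei 5 genes were called with no filter on low counts (Col19a1, Tmem163, Olfm3, Kitl and Cdh18), and 0 to 1 with each animal left out (Ncam2 without WT male 2, Cdh18 without Het male 3). Whether replicate numbers shared by WT and Het animals of a sex pair the samples was not settled. The correlations of their deviations ran from 0.00569 to 0.0789. The mean correlations with animals of other numbers ran from −0.0165 to −0.00408. With the replicate block 1 gene was called (Bmpr1b, −2.47), and the share differed by 0.0290 points (exact permutation p = 0.938). All 3 markers detected (41 members) and the study's limits (52) left too few nuclei for a test of expression. The other alternatives run gave 0 calls. Of these, a marker sum of at least 4 left 9 animals in the fit.

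The share difference turned to −0.0978 points after thinning, −0.0473 with no upper UMI limit and −0.0381 with no condition on Slc17a7 among all kept nuclei. It ran from −0.0706 to 0.141 with each animal left out, below 0 without WT male 2, WT female 1, Het female 1 or Het female 3, and no setting passed. The correlation of CA1-type with dentate-type nuclei was −0.10 after thinning (0 to 11 CA1-type and 0 to 7 dentate-type nuclei per animal), 0.52 (permutation p = 0.0871) with a marker sum of at least 4, 0.68 (permutation p = 0.0155) without the highest Scrublet scores, 0.61 (permutation p = 0.0339) with the study's limits, and 0.50 to 0.79 with each animal left out. It lost p under 0.05 without WT male 3, WT female 1, Het male 2, Het female 1, Het female 2 or Het female 3.

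The class by genotype term called 3 genes without the cluster led by Mef2c and, with it, Het female 2 (Cdh18 −0.014, Abi3bp −0.15, and Kitl 1.89 without a call). It called 1 with no upper UMI limit (none of the 6) and 5 with no condition on Slc17a7 (Olfm3 and Kitl of the 6). Both of these settings also let in WT female 1 (12 animals). With each animal left out it called 5 to 10. Abi3bp lost its call with no filter (adjusted p = 0.131) and without each of 6 animals in turn, and Grik1 without Het female 3 (adjusted p = 0.438), while their differences stayed at 2.52 to 3.79 and 1.86 to 2.83 with each animal left out. The dentate term called 2 genes with no filter, 0 with at least 3 nuclei in each class, and 1 to 11 with each Het animal left out. Leaving out WT male 3 leaves no WT animal. The sex term called 4 genes with no filter and 0 to 3 with each animal left out. Alternatives with no upper UMI limit, no condition on Slc17a7, at least 5 nuclei, at least 3 nuclei, without the cluster led by Mef2c, and the block for the share were chosen after the data were seen. Of the alternatives for single genes, 690 kept direction and side of the threshold, 21 lost the call, 3 gained it and 2 reversed. Most of the 690 were for genes with no call in the main fit, where staying uncalled with the same sign counted, whatever the size. The 21 losses and 2 reversals were all for genes called by a class term. The cause of these differences was not tested. The median standard error of a log2 fold change was 0.23 in CA1-type nuclei and 0.06 in other excitatory nuclei, which is the precision at this depth.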
